A study of Mus musculus with 6 samples.

Results

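Transcripts of 10 genes, namely the subunits of the AMP-activated protein kinase AMPK and the kinases that switch it on, were followed in hearts that overexpress the nuclear receptor COUP-TFII. They were *Prkaa1*, *Prkaa2*, *Prkab1*, *Prkab2*, *Prkag1*, *Prkag2*, *Prkag3*, *Stk11*, *Camkk2* and *Cab39*. The genes were taken by symbol, and every probe set that the array annotation assigns to exactly one of these symbols was used. All 10 were measured, by 24 probe sets of the 45037 that are not array controls, among 18193 genes in all. The OE group held 3 mice of genotype Myh6-MerCreMer; CAG-S-COUP-TFII, and the CTRL group held 3 mice of genotype Myh6-MerCreMer. All were male, as the methods give it. Both groups had a mixed 129SvEv/C57Bl6/J background and received tamoxifen at 40 mg/kg/day on 3 days from an age of 2 months. Ventricles were taken 16 days after the first dose, at a labelled age of 2.5 months, and each mouse gave 1 Affymetrix whole-genome mouse array. The *Myh6* promoter drives the tamoxifen-inducible Cre recombinase (Myh6-MCM) in cardiomyocytes, where Cre switches on the CAG-S-COUP-TFII allele, while the CTRL hearts carried the Cre and the tamoxifen without that allele. RNA came from whole ventricles, so other cell types contributed to every value. In such bulk RNA, fewer cells of a type and less RNA per cell cannot be told apart.

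AMPK is a trimer that senses the energy state of the cell. A catalytic α subunit (*Prkaa1* for α1, *Prkaa2* for α2) is held by a β scaffold (*Prkab1*, *Prkab2*), and a γ subunit (*Prkag1*, *Prkag2*, *Prkag3*) binds AMP, ADP and ATP. The enzyme becomes active once the α subunit is phosphorylated by LKB1, encoded by *Stk11* and held in its active form by MO25 (*Cab39*) and STRAD, or by the calcium-dependent kinase CaMKK2. In cardiac muscle the α2 subunit carries most of the catalytic activity, *PRKAG2* mutations in humans cause a cardiomyopathy with glycogen storage, and γ3 is best known from skeletal muscle.

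COUP-TFII binds DNA at copies of the hexamer AGGTCA, so the 250 bases before each annotated start were searched for it and, as a common promoter element for comparison, for the GC box GGGCGG. Both strands were read, and overlapping matches were counted one by one. All 10 genes had an entry in RefSeq (mouse build GRCm38.p6), with 12 starts, 3 of them for *Prkag2*. AGGTCA stood before 1 of the 12 starts and GGGCGG before 8, and 3 starts had neither. Among 32851 RefSeq promoters, windows of the same length held AGGTCA in 14.0% and GGGCGG in 32.7%. The 3 windows of *Prkag2*, the member that moved most, and those of the α pair, whose members moved apart, are printed 5′ to 3′ with matches to either hexamer, on either strand, in capitals.
Prkag2, chr5:24908510-24908759, minus strand: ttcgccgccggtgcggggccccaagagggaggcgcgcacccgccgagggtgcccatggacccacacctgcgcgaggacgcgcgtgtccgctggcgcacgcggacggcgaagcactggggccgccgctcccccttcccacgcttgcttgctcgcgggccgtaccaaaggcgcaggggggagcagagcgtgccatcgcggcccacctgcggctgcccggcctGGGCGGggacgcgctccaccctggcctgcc
Prkag2, chr5:24995754-24996003, minus strand: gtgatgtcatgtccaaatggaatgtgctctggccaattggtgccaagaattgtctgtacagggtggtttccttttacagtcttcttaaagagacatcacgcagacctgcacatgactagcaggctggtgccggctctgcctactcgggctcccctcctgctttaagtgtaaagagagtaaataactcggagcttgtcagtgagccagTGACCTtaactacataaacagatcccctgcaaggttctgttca
Prkag2, chr5:25100643-25100892, minus strand: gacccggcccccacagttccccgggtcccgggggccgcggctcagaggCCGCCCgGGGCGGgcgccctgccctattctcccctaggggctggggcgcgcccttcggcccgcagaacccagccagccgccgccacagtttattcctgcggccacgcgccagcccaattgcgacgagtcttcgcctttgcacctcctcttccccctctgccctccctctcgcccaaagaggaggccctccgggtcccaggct
Prkaa1, chr15:5143611-5143860, plus strand: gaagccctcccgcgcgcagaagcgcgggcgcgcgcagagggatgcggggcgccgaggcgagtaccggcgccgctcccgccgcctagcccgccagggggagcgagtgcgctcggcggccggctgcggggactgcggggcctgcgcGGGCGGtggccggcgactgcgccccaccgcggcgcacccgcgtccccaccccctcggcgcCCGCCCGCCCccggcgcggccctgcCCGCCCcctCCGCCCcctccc
Prkaa2, chr4:105109899-105110148, minus strand: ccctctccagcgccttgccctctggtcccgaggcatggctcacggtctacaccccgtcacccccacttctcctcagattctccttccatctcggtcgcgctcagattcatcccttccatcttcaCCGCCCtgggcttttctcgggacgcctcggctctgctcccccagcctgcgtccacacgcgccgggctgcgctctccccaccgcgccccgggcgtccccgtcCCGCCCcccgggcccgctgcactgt
The one AGGTCA lay on the reverse strand of the middle *Prkag2* window, as TGACCT, with its first base 43 bases before the start. That window had a GC content of 48.4%, against 77.2% and 73.2% in the other *Prkag2* windows. The *Prkaa1* window held 5 GC boxes at a GC content of 85.2%, and the *Prkaa2* window held 2. These matches describe letters only, and binding was not measured on the arrays.

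The deposited values are log2 differences from each probe set's median over the 6 arrays. They hold no level of expression, so the shares of α1 and α2 in a heart, or whether *Prkag3* lies above background, cannot be given. For the same reason the presence of defining cardiomyocyte transcripts could not be checked as a level. The overexpressed gene itself, *Nr2f2*, had 6 probe sets, of which 1416159_at was 11.2-fold higher in OE (log2 change 3.49, SE 0.13, limma adjusted p = 3.07e-05). The other 5 changed by −0.34 to −0.13 and did not pass the test. The root mean square distance over genes was 0.375 to 0.427 between arrays of different groups, against 0.194 to 0.215 within OE and 0.208 to 0.233 within CTRL.

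In OE ventricles 5 of the 10 genes rose, 2 fell and 3 did not pass the test (limma, Benjamini-Hochberg adjusted p below 0.05 over all genes). Among all genes 26.7% were called, 14.9% as higher and 11.8% as lower. In 7 of the 10 genes all OE arrays lay on one side of all CTRL arrays, which also held for 45.6% of all genes. The authors' methods use one-way analysis of variance instead, which called 14.1% of all genes and, of these 10, *Prkab2*, *Prkag2* and *Prkag3* as higher and *Prkab1* as lower. The median log2 change of the 10 genes was 0.14, against −0.03 over all genes. Higher in OE were *Prkaa1*, *Prkab2*, *Prkag2*, *Prkag3* and *Camkk2*, and lower were *Prkaa2* and *Prkab1*. So within both the α and the β pair, one isoform rose and the other fell.

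**Figure D1:**
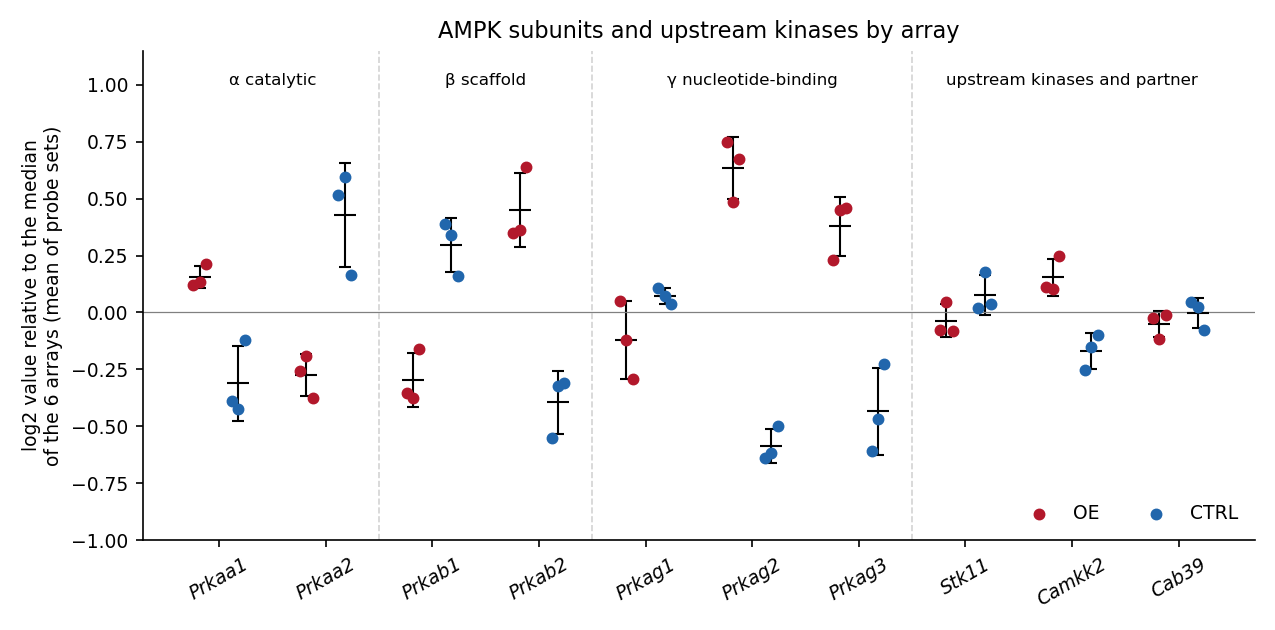
The log2 value of each of the 10 genes on each array, relative to the median of the 6 arrays and averaged over its probe sets, with OE (red) left of CTRL (blue) and black bars for the mean ± SD of 3 arrays. The OE and CTRL points are apart in 7 genes, by the widest margin in *Prkag2*, and overlap in *Prkag1*, *Stk11* and *Cab39*.

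The catalytic subunits moved in opposite directions. *Prkaa2*, the α2 subunit, had values of −0.26, −0.19 and −0.38 in OE ventricles, against 0.52, 0.60 and 0.17 in CTRL ventricles. All OE arrays lay below all CTRL arrays, and CTRL 3 lay nearest to OE. Expression was 1.63-fold lower in OE (log2 change −0.70, SE 0.12, adjusted p = 0.00521, limma), and the 3 probe sets fell by 0.57, 0.60 and 0.93 on the log2 scale, each called. Without CTRL 3 the change was −0.83. *Prkaa1*, the α1 subunit, which most tissues express, had values of 0.12, 0.14 and 0.21 in OE ventricles, against −0.39, −0.42 and −0.12 in CTRL ventricles. The groups did not overlap, and CTRL 3 was again the nearest. The gene rose 1.38-fold in OE (log2 change 0.47, SE 0.09, adjusted p = 0.0097, limma). It has a single probe set, so the innermost values of the groups mirror each other around 0 by the way the data were centred. Both calls were lost under one-way analysis of variance (adjusted p = 0.0527 for *Prkaa2* and 0.0561 for *Prkaa1*).

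The β scaffolds also parted. *Prkab1*, the β1 subunit, had values of −0.35, −0.37 and −0.16 in OE ventricles, against 0.39, 0.34 and 0.16 in CTRL ventricles. The groups did not overlap, and its expression was 1.51-fold lower in OE (log2 change −0.59, SE 0.09, adjusted p = 0.00353, limma). Its probe sets fell by 0.58 and 0.60 on the log2 scale, and both were called. *Prkab2*, the β2 subunit, which is the more abundant β form in skeletal muscle, had values of 0.35, 0.36 and 0.64 in OE ventricles, against −0.55, −0.32 and −0.31 in CTRL ventricles. Here too the groups were apart, with the highest value on OE 3. The gene rose 1.80-fold in OE (log2 change 0.84, SE 0.11, adjusted p = 0.00155, limma), and its 3 probe sets rose by 0.77 to 0.90.

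Of the γ subunits, *Prkag2* and *Prkag3* rose and *Prkag1* did not pass the test. *Prkag2*, the γ2 subunit, had mean values over its 4 probe sets of 0.75, 0.48 and 0.68 in OE ventricles, against −0.64, −0.62 and −0.50 in CTRL ventricles. The groups were far apart relative to the spread within each. The gene was 2.33-fold higher in OE (log2 change 1.22, SE 0.09, adjusted p = 0.000222, limma), and 1.32% of all genes changed by more in either direction. Its probe sets did not move together. Probe set 1423832_at had values of 1.43, 0.98 and 1.10 in OE ventricles, against −1.14, −1.08 and −0.98 in CTRL ventricles, which is 4.73-fold higher (log2 change 2.24, SE 0.12, adjusted p = 9.89e-05, limma). Probe sets 1451140_s_at and 1423831_at rose by 1.48 and 1.44 (adjusted p = 0.000144 and 0.000398, limma). In contrast, 1431263_at had values of −0.34, −0.24 and 0.01 in OE ventricles, against −0.01, 0.07 and 0.19 in CTRL ventricles. The groups overlapped there, and the change of −0.28 (SE 0.11) did not pass the test (adjusted p = 0.112, limma). The 3 probe sets that rose carry the same source sequence record in the array annotation, while none is listed for 1431263_at, and which of the 3 starts each one reads is not given in the sources used here. The mean of those 3 probe sets, taken after their values were seen, was 3.30-fold higher in OE (log2 change 1.72, SE 0.12).

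*Prkag3*, the γ3 subunit, had values of 0.23, 0.45 and 0.46 in OE ventricles, against −0.61, −0.47 and −0.23 in CTRL ventricles. Its single probe set placed every OE array above every CTRL array and rose 1.76-fold (log2 change 0.81, SE 0.11, adjusted p = 0.00227, limma). As the values hold no level, a rise of this size says nothing of how much γ3 transcript a heart holds. *Prkag1*, the widely expressed γ1 subunit, had values of 0.05, −0.12 and −0.29 in OE ventricles, against 0.11, 0.07 and 0.04 in CTRL ventricles. The highest OE array reached into the CTRL range, and the log2 change was −0.19 (SE 0.09, 95% confidence interval −0.41 to 0.03, adjusted p = 0.167, limma). Its probe sets differed, with a change of −0.11 in 1433533_x_at, a type of probe set with probes that can match other transcripts, and −0.28 in 1417690_at (adjusted p = 0.570 and 0.0663, limma). With the first of these left out the gene was called lower in OE (−0.28, adjusted p = 0.0437, limma).

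**Figure D2:**
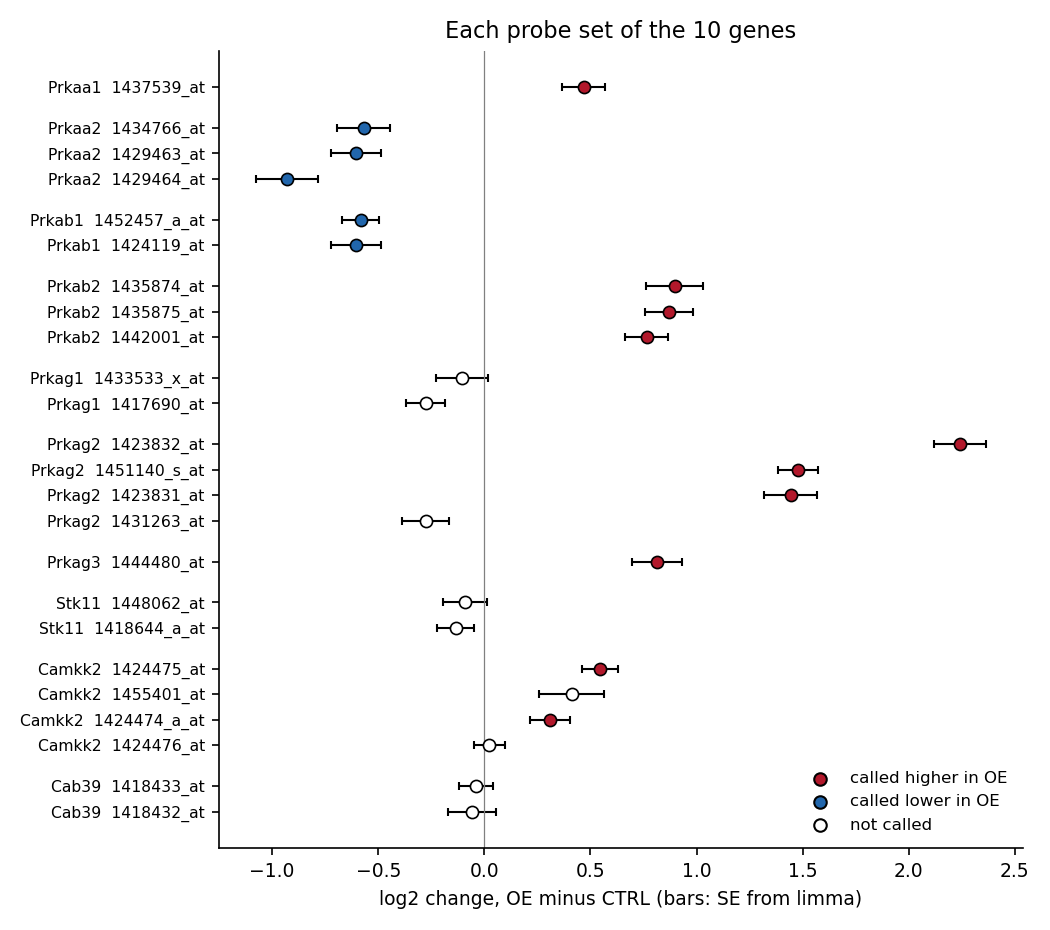
The log2 change between OE and CTRL of each of the 24 probe sets, with bars for the SE from limma, red points for probe sets called higher in OE, blue points for those called lower and white points for those not called. In *Prkag2* 3 probe sets lie between 1.44 and 2.24 and 1431263_at lies at −0.28, while the probe sets of *Prkaa2*, *Prkab1* and *Prkab2* each lie on one side.

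Over all 24 probe sets, 10 were called higher in OE, 5 lower and 9 neither, and in 16 the groups did not overlap. Among all probe sets 21% were called, 11.4% as higher and 9.58% as lower, and 40.7% had groups that did not overlap.

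Of the kinases upstream and their partner, *Camkk2* alone passed the test. *Camkk2*, the calcium-dependent kinase, had values of 0.11, 0.10 and 0.25 in OE ventricles, against −0.25, −0.15 and −0.10 in CTRL ventricles. The groups were apart, and the gene rose 1.25-fold in OE (log2 change 0.32, SE 0.08, adjusted p = 0.0186, limma). Its 4 probe sets ranged from 0.54 in 1424475_at and 0.31 in 1424474_a_at, both called, to 0.41 in 1455401_at and 0.02 in 1424476_at, which were not (adjusted p = 0.00414, 0.0491, 0.0927 and 0.846, limma). The call was lost under one-way analysis of variance (adjusted p = 0.0528), without OE 3 (0.28, adjusted p = 0.0563, limma) and without CTRL 1 (0.28, adjusted p = 0.0599, limma). It was also lost with the most variable probe set standing for the gene (0.41, adjusted p = 0.0803, limma).

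*Stk11*, which encodes LKB1, had values of −0.07, 0.05 and −0.08 in OE ventricles, against 0.02, 0.18 and 0.04 in CTRL ventricles. The groups overlapped, and the log2 change was −0.11 (95% confidence interval −0.29 to 0.06, adjusted p = 0.296, limma). *Cab39*, its MO25 partner, had values of −0.02, −0.12 and −0.01 in OE ventricles, against 0.05, 0.02 and −0.08 in CTRL ventricles. These overlapped as well, with a change of −0.05 (95% confidence interval −0.21 to 0.11, adjusted p = 0.634, limma). The intervals leave room for falls of 0.29 and 0.21 on the log2 scale.

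Since the calls depend on how arrays are aligned with each other, each array was also centred on its ribosomal protein genes. Of 77 ribosomal protein genes listed, 43 were measured and served for this. Of these 43, 16 were themselves called higher in OE and 1 lower, with a median change of 0.21. Without the centring 14.9% of all genes were called higher and 11.8% lower. The centring moved the median of all genes to −0.23 by taking the same amount from the change of every gene. It called 7.74% of all genes higher and 47.3% lower in OE. Relative to the ribosomal protein genes, *Prkag1* (−0.39, adjusted p = 0.0138), *Stk11* (−0.31, adjusted p = 0.0166) and *Cab39* (−0.25, adjusted p = 0.0197) were called lower in OE, and the rise of *Camkk2* was no longer called (0.13, adjusted p = 0.182, limma). The other 6 genes kept their direction and their call, *Prkaa1* with a smaller rise of 0.27 (adjusted p = 0.0381, limma).

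The difference between 2 genes on the same array does not depend on that alignment, so isoforms and partners were also compared within arrays. The α2 to α1 difference was −0.38, −0.33 and −0.59 in OE ventricles, against 0.91, 1.02 and 0.29 in CTRL ventricles. The ratio of the isoforms was thus 2.25-fold lower in OE than in CTRL, relative to its median (log2 change −1.17, SE 0.24). The β2 to β1 difference was 0.70, 0.74 and 0.80 in OE ventricles, against −0.94, −0.66 and −0.47 in CTRL ventricles. That ratio was 2.71-fold higher in OE (1.44, SE 0.14). The γ2 to γ1 difference was 0.70, 0.60 and 0.97 in OE ventricles, against −0.75, −0.69 and −0.53 in CTRL ventricles, a ratio 2.66-fold higher in OE (1.41, SE 0.13). With the most variable probe set standing for each gene, the last change was 2.52. The γ3 to γ1 ratio was 2.01-fold higher in OE (1.00, SE 0.21).

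The pairs upstream came after these. *Stk11* against *Camkk2* was 1.35-fold lower in OE (−0.44, SE 0.10), and *Cab39* against its paralog *Cab39l* was lower as well (−0.26, SE 0.07), a change of −0.13 without probe sets that can match other transcripts and of −0.67 with the most variable probe set. In none of the 6 pairs did the groups overlap, while 45.6% of all genes taken singly had separate groups. The share over other pairs of genes was not computed, and the α and β pairs join genes already called in opposite directions. A two-sided exact permutation test gave p = 0.1 in each, the smallest value that 3 against 3 arrays allow, and adjustment over the 6 pairs left it at 0.1. A p below 0.05 cannot be reached by this test here.

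**Figure D3:**
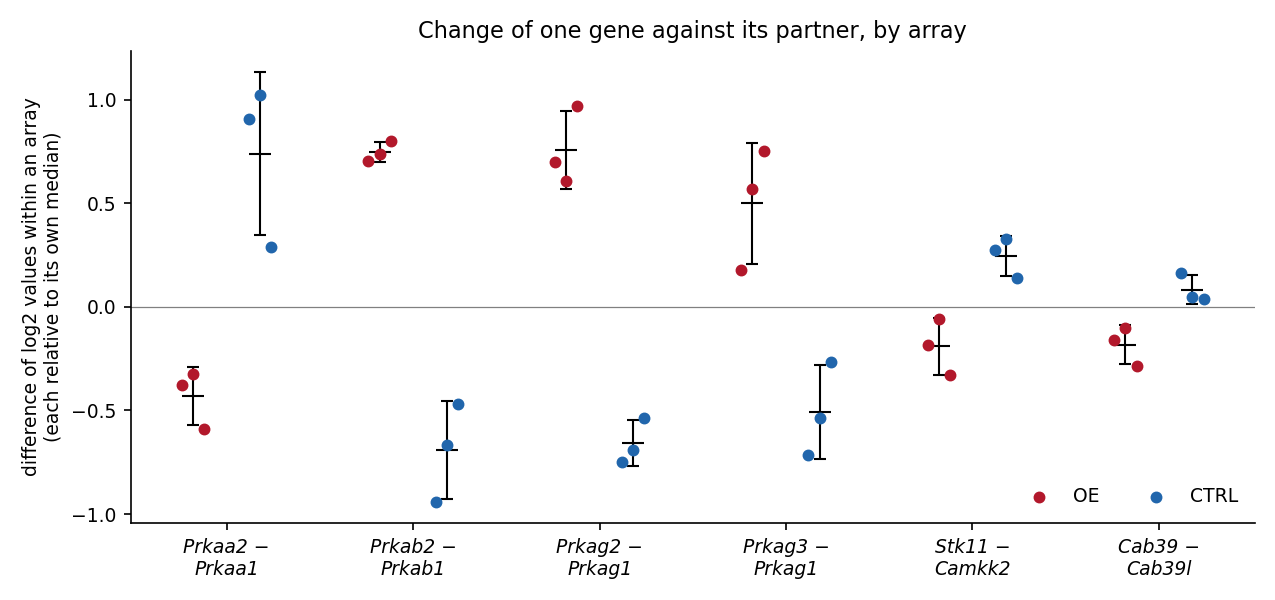
The difference of log2 values between the genes of each of 6 pairs on the same array, each gene relative to its own median, with OE (red) left of CTRL (blue) and black bars for the mean ± SD of 3 arrays. OE lies below CTRL for α2 against α1, *Stk11* against *Camkk2* and *Cab39* against *Cab39l*, and above CTRL in the 3 other pairs.

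The arrays of a group were not equally far from the other group. In all 7 genes whose groups were apart, CTRL 3 was the CTRL array nearest to OE. Among the 8296 genes with separate groups, CTRL 3 held that place in 41.1%, CTRL 1 in 29.9% and CTRL 2 in 29.0%. Leaving out CTRL 3 kept the call of all 10 genes.

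Markers of several cell types moved along with the groups. For comparison, 14.9% of all genes were called higher and 11.8% lower. At an unadjusted limma p below 0.05 these shares were 20.4% and 19.9%, and one-way analysis of variance called 14.1% in either direction. Of 20 cardiomyocyte markers 2 were called higher in OE and 12 lower, with a mean value per array of −0.22 to −0.18 in OE ventricles and 0.16 to 0.20 in CTRL ventricles. Of 18 fibroblast markers 11 were called higher and 3 lower (0.18 to 0.35 in OE ventricles, −0.49 to −0.15 in CTRL ventricles). Of 22 macrophage markers 11 were called higher and 0 lower, with 13 and 0 at an unadjusted limma p below 0.05 and 3 and 0 under one-way analysis of variance (0.10 to 0.33 in OE ventricles, −0.38 to −0.15 in CTRL ventricles). Of 18 endothelial markers 1 was called higher and 10 lower (−0.20 to −0.01 in OE ventricles, 0.11 to 0.26 in CTRL ventricles). Of 12 markers of smooth muscle cells and pericytes 6 were called higher and 5 lower (0.14 to 0.30 in OE ventricles, −0.35 to −0.08 in CTRL ventricles). The median change of this list was only 0.09, and its largest rises were those of *Cnn1* (4.94) and *Myl9* (2.78). Among the 5 called lower, *Abcc9* fell most, followed by *Smtn* at −0.87, so the means of this list do not describe a common rise. One-way analysis of variance called 1 cardiomyocyte marker higher and 9 lower. For the fibroblast, endothelial and smooth muscle lists it called 3 and 2, 1 and 3, and 5 and 4. Relative to the ribosomal protein genes, 7.74% of all genes were called higher and 47.3% lower. With that centring 0 cardiomyocyte markers were called higher and 15 lower. For the fibroblast, macrophage, endothelial and smooth muscle lists these counts were 9 and 3, 8 and 2, 1 and 15, and 5 and 6. Cell types differ in the AMPK isoforms they express, and the part of these shifts in the changes of the 10 genes was not tested.

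Around AMPK, 4 further lists were described by their counts. Of 13 measured regulators that act on AMPK or on its kinases, 2 were called higher and 4 lower in OE, with a median change of −0.04. Relative to the ribosomal protein genes 1 was called higher and 7 lower. Over all genes the shares called higher and lower were 14.9% and 11.8%, and 7.74% and 47.3% after that centring. The phosphatase *Ppm1e*, which removes the activating phosphate of AMPK, had values of 0.54, 0.74 and 0.51 in OE ventricles, against −0.73, −0.67 and −0.51 in CTRL ventricles. It was 2.35-fold higher in OE with the groups far apart (log2 change 1.23, adjusted p = 0.000263, limma), about the size of the *Prkag2* change. *Ppm1e* has a single probe set, whose innermost group values mirror each other by the centring, while the *Prkag2* value averages 4 probe sets. Folliculin and its partners, which bind AMPK, all fell, with *Fnip2* at −0.92, *Fnip1* at −0.42 and *Flcn* at −0.39 (adjusted p = 0.00207, 0.00377 and 0.00805, limma). The stress protein gene *Sesn1* fell by 0.46 and the kinase *Map3k7*, which encodes TAK1, rose by 0.27 on the log2 scale (adjusted p = 0.0346 and 0.0344, limma). Both calls were lost without OE 2 (−0.32 for *Sesn1*, 0.25 for *Map3k7*), without OE 3 (−0.52, 0.27), without CTRL 1 (−0.43, 0.26) or without CTRL 2 (−0.42, 0.23), and that of *Map3k7* also without OE 1 (0.30) and relative to the ribosomal protein genes (0.077, adjusted p = 0.437, limma). *Strada*, the pseudokinase that holds LKB1 active, was at −0.04 and the phosphatase *Ppm1f* at −0.07, neither called. *Strada* was called higher when its most variable probe set stood for it (0.39, adjusted p = 0.0149, limma).

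Among 12 further kinases that LKB1 activates, 1 was called higher and 4 lower in OE, with a median change of −0.17. Relative to the ribosomal protein genes 0 were called higher and 8 lower. The shares of all genes called higher and lower were 14.9% and 11.8%, and 7.74% and 47.3% after that centring. *Snrk*, a kinase of this family expressed in the heart, had values of −0.15, −0.46 and −0.54 in OE ventricles, against 0.15, 0.47 and 0.17 in CTRL ventricles. It was 1.57-fold lower in OE (log2 change −0.65, adjusted p = 0.00965, limma), with groups that did not overlap. The *Snrk* call was lost under one-way analysis of variance (adjusted p = 0.0720). *Mark4*, which phosphorylates microtubule-associated proteins, fell by 0.33 (adjusted p = 0.0126, limma). The calls of *Brsk1* (−0.27), *Mark2* (−0.26) and *Nuak1* (0.55) had adjusted p = 0.0280, 0.0383 and 0.0397 (limma). Each was lost when any of several arrays was left out. The *Brsk1* call was lost without OE 2 (−0.25), OE 3 (−0.26), CTRL 1 (−0.27) or CTRL 2 (−0.24), and the *Mark2* call without OE 1 (−0.24), OE 3 (−0.24), CTRL 1 (−0.22) or CTRL 3 (−0.25). That of *Nuak1* was lost without OE 1 (0.58), OE 2 (0.53), OE 3 (0.52) or CTRL 2 (0.62), and without CTRL 3 the change was 0.34. Relative to the ribosomal protein genes *Nuak1* was not called either (0.35, adjusted p = 0.0897, limma). *Mark1* (−0.06) and *Mark3* (0.14) were not called.

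The transcripts of AMPK substrates, proteins that the kinase phosphorylates, had 0 members called higher and 8 of 25 called lower in OE (limma). The shares over all genes were 14.9% and 11.8%. The median change of the substrates was −0.14. At an unadjusted p below 0.05 the counts were 2 higher and 9 lower, where 20.4% and 19.9% of all genes stood. One-way analysis of variance called 0 higher and 3 lower, and it called 14.1% of all genes in either direction. Relative to the ribosomal protein genes 0 were called higher and 20 lower, where 7.74% and 47.3% of all genes stood. *Tbc1d4*, which governs the movement of the glucose transporter GLUT4, was 1.67-fold lower in OE (−0.74, adjusted p = 0.00109, limma). *Acacb*, the acetyl-CoA carboxylase that sets fatty acid entry into mitochondria, was 1.59-fold lower (−0.67, adjusted p = 0.00148, limma). The transcription factors *Mlxipl* and *Foxo3* were lower by −1.10 and −0.59 (adjusted p = 0.0130 and 0.0117, limma). *Ppargc1a*, the coactivator of mitochondrial genes, had values of −0.22, −0.05 and −0.35 in OE ventricles, against 1.43, 1.36 and 0.05 in CTRL ventricles. CTRL 3 lay much nearer to the OE arrays than to CTRL 1 and CTRL 2. The change of −1.15 (adjusted p = 0.0383, limma) passed the test with all arrays and missed it without OE 1 (−1.15), OE 2 (−1.23), OE 3 (−1.08), CTRL 1 (−0.91) or CTRL 2 (−0.95). The *Ppargc1a* call was also lost under one-way analysis of variance (adjusted p = 0.167). *Gfpt1* and *Mff* changed least, by −0.01 and −0.03.

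Of 13 measured enzymes that make or remove AMP, 3 were called higher and 3 lower in OE, with a median change of −0.10. Among all genes 14.9% were called higher and 11.8% lower. Relative to the ribosomal protein genes 0 of these enzymes were called higher and 7 lower, with a median of −0.30. That centring called 7.74% of all genes higher and 47.3% lower. The calls of *Aprt* (0.14, adjusted p = 0.125), *Adss* (0.18, adjusted p = 0.186) and *Nt5c2* (0.095, adjusted p = 0.322, limma) were lost under it. *Ampd1*, the AMP deaminase of muscle, fell by 0.42 (adjusted p = 0.0113, limma), and *Aprt*, which makes AMP from adenine, rose by 0.34 (adjusted p = 0.0125, limma). The *Ampd1* call was lost under one-way analysis of variance (adjusted p = 0.0548). The adenylosuccinate synthetases went opposite ways, with the muscle form *Adssl1* at −0.41 and *Adss* at 0.37 (adjusted p = 0.0300 and 0.0351, limma). The *Adssl1* call was lost without OE 2 (−0.39), OE 3 (−0.32) or any CTRL array (−0.45 to −0.36), and the *Adss* call without any OE array (0.35 to 0.40) or without CTRL 3 (0.26). *Nt5c2*, a nucleotidase, rose by 0.29 (adjusted p = 0.0293, limma), a call lost without OE 1 (0.26), OE 3 (0.28), CTRL 1 (0.23) or CTRL 3 (0.31). *Ak4* (0.00) and *Adk* (−0.06) were not called, but *Adk* was called higher in OE when its most variable probe set stood for it (0.97, adjusted p = 0.00831, limma).

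**Figure D4:**
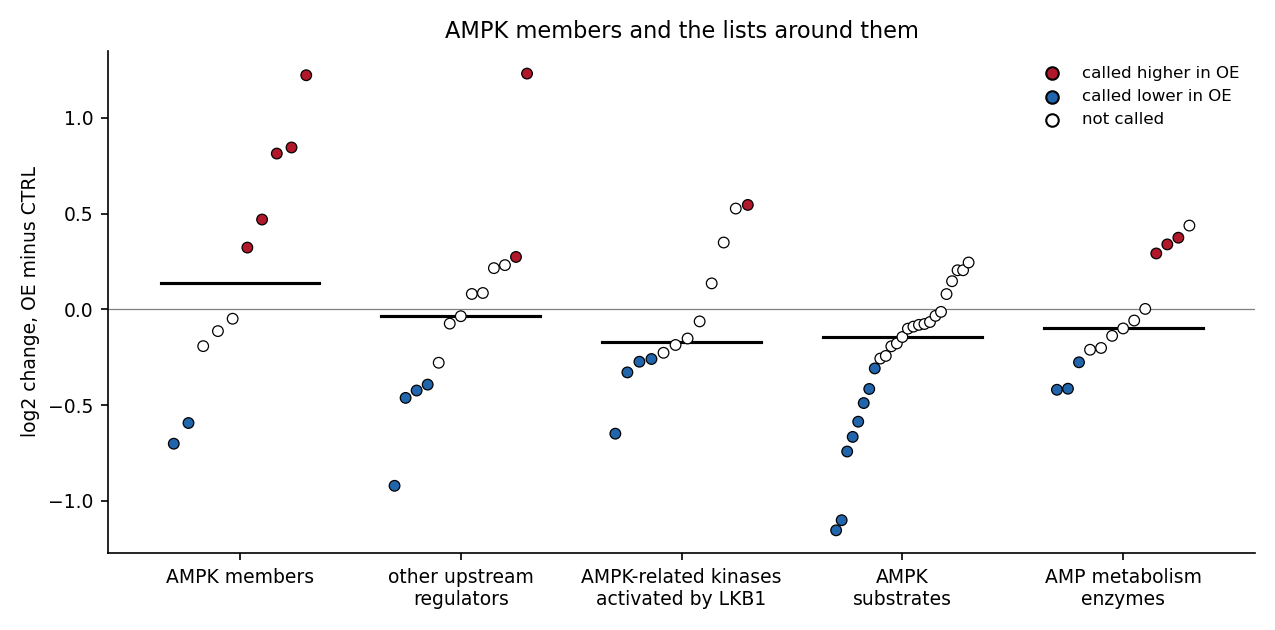
The log2 change between OE and CTRL of each gene of 5 lists, sorted within each list, with red points for genes called higher in OE, blue points for genes called lower, white points for genes not called and a black bar for the median. The medians run from 0.14 for the 10 genes of AMPK and its kinases to −0.17 for the AMPK-related kinases. No AMPK substrate was called higher, where 14.9% of all genes were.

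*Prkaa2* was set against every other gene over the 6 arrays. The genes with values closest to it were *Sdha*, the flavoprotein of respiratory complex II (root mean square difference 0.0504), *Magt1* (0.0548), *Trim7* (0.0673), the endothelial receptor gene *Robo4* (0.0684) and *Ppm1l* (0.0693). *Sdha* had values of −0.25, −0.24 and −0.29 in OE ventricles, against 0.57, 0.63 and 0.14 in CTRL ventricles, so CTRL 3 was the lowest CTRL array there too. Of the 10 genes, *Prkab1* came nearest to *Prkaa2*, at rank 200 and a difference of 0.169. These genes were picked for likeness over 6 arrays, which share their centring, and the order is a description.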

How the data were processed

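Whole ventricles of 3 OE and 3 CTRL mice were analysed. The authors summarized the arrays with RMA in GeneSpring GX, applied quantile normalization and subtracted each probe set's median of all samples. The deposited values were read as log2 values, the base being not given in the sources used here. Values ran from −4.29 to 3.54. Of 45101 probe sets, 64 array controls were left out, and 34945 with exactly 1 symbol were averaged to 18193 genes. OE was compared with CTRL with limma 3.58.1 (R 4.3.3; lmFit, eBayes), two-sided, without covariates, with Benjamini-Hochberg adjustment over all genes or all probe sets and a threshold of 0.05. The script was tested on simulated data. SE is the moderated standard error, except that SE of pair differences and of means over selected probe sets comes from the spread of the arrays. With 3 arrays per group, the number of arrays limits the precision.

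The genes and lists were chosen with earlier results of these data known. Named are all 10 genes with every probe set, *Nr2f2*, the 5 genes nearest to *Prkaa2* and, from each other list, up to 5 called genes with the largest change, up to 2 called against most calls and up to 2 with the smallest change. The alternatives were array weights, one-way analysis of variance, other rules for probe sets, centring arrays on their median or on ribosomal protein genes, the replicate number as a block, each array left out in turn and a fold limit of 1.2. Filters on level, background correction and dim probes could not be tried, because the values hold no level. Some genes of the lists were not analysed here. Promoter sequences come from RefSeq. Python 3.11.15 with pandas 2.3.3, scipy 1.17.1 and matplotlib 3.10.9 was used.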

Additional observations from a re-analysis of the deposited data

How the results depend on the processing

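Array weights, centring on the array median, the fold limit of 1.2 and the replicate number as a block kept the calls of all 10 genes. One-way analysis of variance called 3 higher and 1 lower, and 1437 higher and 1125 lower among all genes. Centring on ribosomal protein genes called 5 of the 10 lower, and 1409 genes higher and 8608 lower in all. With each array left out in turn, 4 to 5 of the 10 were called higher and 2 lower, as were 1830 to 2371 and 1243 to 1731 of all genes, and 4 to 7 upstream regulators, 3 to 4 AMPK-related kinases, 6 to 8 substrates and 2 to 4 AMP enzymes were called. Centred on ribosomal protein genes, 8 of the kinases and 20 substrates were called, and one-way analysis of variance called 1, 3 and, of the AMP enzymes, 2.

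Replicate numbers did not pair the arrays (correlations of same-numbered deviations 0.07, −0.12 and 0.03). With the replicate block 3 of 12 AMPK-related kinases and 3 of 13 AMP enzymes were called. Among all 18193 genes that setting called 2369 higher and 1679 lower.

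*Prkag2* turned to −0.28 with probe set 1431263_at alone. The 21 named calls in the lists around AMPK were tried under alternatives added after seeing the data. Of these, 7 were kept throughout, 12 with each array left out and 13 with the replicate block, and 0 changed sign. Signs changed in genes not called. With the most variable probe set *Strada* was at 0.39, *Gfpt1* at 0.24 and *Adk* at 0.97. Without probe sets that can match other transcripts *Mark1* was at 0.067 and *Ak4* at −0.043, and centred on ribosomal protein genes *Mark3* was at −0.061 and *Ak4* at −0.19. With arrays left out in turn *Gfpt1* ran from −0.036 to 0.016, *Mff* from −0.069 to 0.023, *Ak4* from −0.10 to 0.10 and *Adk* from −0.14 to 0.012. Apart from results named here or in the report, the cause of a changed call was not tested. Intensity over background is unknown.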
